A study of Mus musculus with 6 samples.

Results

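Nuclear receptors of the liver were followed in liver RNA of mice that lack Keap1 in hepatocytes and of their genetic controls. The set holds 31 genes, out of 18193 genes with a probe set of a single symbol. They were chosen by symbol with no measured value in the rule, though earlier results of these data were known. Of the 31, 30 had such a probe set and 27 were bright enough to be tested among 13027 genes. Rara, Nr2f1 and Vdr lay below the limit on dim probe sets, and Nr1h2 was not analysed here. Each gene was read from its probe set with the highest mean log2 signal over the 6 arrays.

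The knockouts were 3 male mice of genotype Alb-Cre:Keap1(flox/-), numbered 3, 4 and 5, and the controls were 3 male mice of genotype Alb-Cre:Keap1(flox/+), numbered 1, 2 and 3. All 6 were 9 weeks old, carried the same Cre driven by the albumin promoter, which is active in hepatocytes, and had received vehicle only, made of 10% DMSO, 10% Cremophor-EL and 80% PBS. The minus allele was present in every cell of a knockout, whether or not Cre acted there, so cells without Cre had the floxed copy alone, while cells of controls without Cre had both copies. No strain is named in the labels. Each array held the liver RNA of 1 mouse on an Affymetrix Mouse Genome 430 2.0 array, and the design asks which hepatic genes depend on KEAP1, the protein that marks the transcription factor NRF2 for degradation.

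Nuclear receptors are transcription factors that bind DNA through zinc fingers, and many of them switch on or off when a small fat-soluble molecule enters their ligand pocket. In liver they sense fatty acids, oxysterols, bile acids, retinoids, thyroid hormone and steroids, and set the genes of lipid, bile acid and glucose metabolism to match. Many of them bind as a pair with a retinoid X receptor, while others, called orphans, act without a known hormone.

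The targeted gene followed the labels. Keap1 had signals of 326, 151 and 214 in the knockouts, against 786, 843 and 700 in the controls (log2 difference -1.74, limma adjusted p = 0.0118). Nqo1, the classical quinone reductase target of NRF2, averaged 2766 ± 228 in knockouts and 549 ± 101 in controls (SD, n = 3 each). Nfe2l2, the gene of NRF2 itself, fell, with 2506 ± 351 in knockouts and 3958 ± 307 in controls (limma adjusted p = 0.0303). That call was kept in 1 of the 6 fits that left out an array. All 8 hepatocyte markers were bright enough to be tested, with summed signals of 178236 to 195778 in knockouts and 157053 to 176078 in controls. Among all genes tested, 135 rose (1.04%) and 123 fell (0.944%) in knockouts at a limma adjusted p under 0.05, and the median log2 difference was -0.02. The 3′ to 5′ ratio of the actin signals, which tracks RNA quality, ran between 1.58 and 1.85 in knockouts and between 1.54 and 1.90 in controls. Adjusted p-values set a group difference against the spread between mice, of which there were 3 in each group. The fit moderates that spread across genes.

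In the controls the brightest receptor was Hnf4a, with a mean signal of 8429 ± 671, and the dimmest tested one was Ppard, with 119 ± 31.4 (SD, n = 3 each). After Hnf4a came Nr1h4, Rxra, Nr3c1, Ppara, Nr5a2, Nr1h3, Nr2f6, Rora and Esr1, whose control means ran down to 1380 for Esr1. The control values of neighbours in this order overlapped except between Hnf4a and Nr1h4, between Rxra and Nr3c1 and between Nr2c2 and Nr2c1. Probe sets bind their targets with unequal strength, so the order is one of signals and not of RNA amounts. The plot of all receptors by mouse shows that order with both groups.

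**Figure D1:**
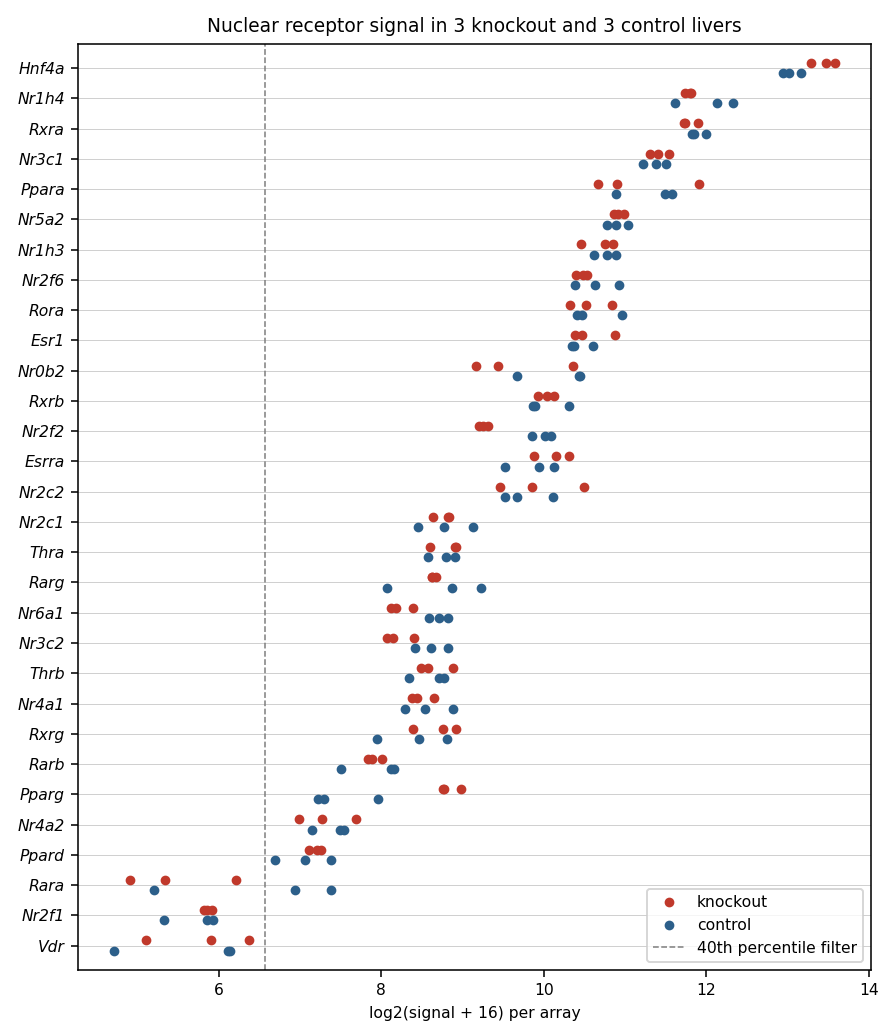
Signal of the 30 measured nuclear receptors in each mouse, as log2(signal + 16), with a row for knockouts above a row for controls, genes ordered by their control mean and a dashed line at the limit for testing. Hnf4a stands at the top with signals of 7861 to 12250, and points of Pparg and Nr2f2 part by group while those of most other receptors mix.

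Of the 27 receptors tested, 1 rose and 1 fell in knockouts, which is 7.41% of them, beside 1.98% of all genes tested. The receptor that rose was Pparg, by 2.54-fold, and the one that fell was Nr2f2, to 59.6% of the control signal. The other 25 did not pass, with log2 differences from -0.53 to 0.41 and limma adjusted p-values from 0.109 to 0.996. In 12 of these 25 the difference was under 0.1 on the log2 scale. The 95% interval lay within 0.5 of 0 in 13 of the 25 and within 1 of 0 in 24, and 3 had an unadjusted p under 0.05. The share of all genes with an unadjusted p under 0.05 is not given, here or for any list below. Over the 27 receptors the median log2 difference was -0.02, as over all genes, with 12 above and 15 below the controls, and 47.2% of all genes lay above.

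Knockout and control values did not overlap for 5 of the 27 receptors, or 18.5%, beside 21.3% of all genes tested. Pparg and Hnf4a were higher in all 3 knockouts, and Nr2f2, Nr6a1 and Nr3c2 were lower in all 3. The background shares in each direction were 10.3% of all genes higher and 10.9% lower. The share of receptors whose groups part was therefore near that of genes in general. The plot of differences shows all 27 with their intervals.

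**Figure D2:**
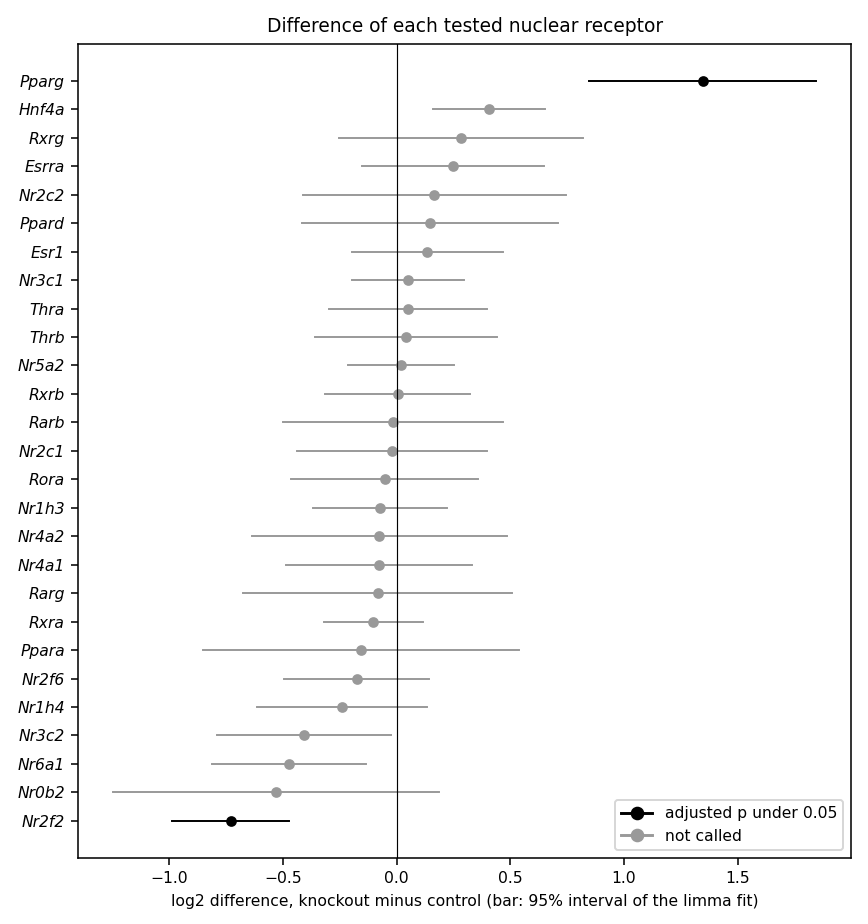
Log2 difference between knockouts and controls for the 27 nuclear receptors tested, with 95% intervals from limma. Pparg at 1.35 and Nr2f2 at -0.73 are the receptors that passed, and the intervals of most others span 0.

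Among the lipid sensors, Pparg encodes PPAR gamma, the fatty acid receptor best known for driving adipocyte formation and fat storage. Its signal was 419, 491 and 417 in knockouts, against 141, 233 and 133 in controls. Every knockout exceeded every control, and control 2 was the highest control. The group means were 442 ± 42.2 in knockouts and 169 ± 55.6 in controls (SD, n = 3 each), a log2 difference of 1.35 with a 95% interval from 0.85 to 1.85 (limma adjusted p = 0.0212). The gene was measured by a single probe set, 1420715_a_at, whose ending marks probes shared by several transcripts of 1 gene, so its transcripts were not told apart.

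The Pparg call depended on which mice were included. It was kept without control 2 (limma adjusted p = 0.00728) and was lost without knockout 3, 4 or 5 (limma adjusted p = 0.0755, 0.0666 and 0.0600) and without control 1 or 3 (limma adjusted p = 0.0709 and 0.0557). The log2 difference stayed between 1.21 and 1.58 in these fits. Without a variance trend the adjusted p was 0.0613.

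Fat cells in the sample would carry Pparg as well. Of 4 adipocyte markers listed, Fabp4, a fatty acid carrier that macrophages also make, alone was tested, with signals of 720, 536 and 531 in knockouts, against 531, 570 and 426 in controls. Its groups overlapped, with a log2 difference of 0.22 (limma adjusted p = 0.584), and the summed signal of the measured markers was 566 to 754 in knockouts and 478 to 645 in controls. Adipoq, the adipocyte hormone adiponectin, had signals of 25.7, 35 and 24.6 in knockouts, against 8.2, 60 and 38.8 in controls. Adipoq was too dim to test in both groups, and the groups overlapped. Kupffer cells, the macrophages of the liver, carry Pparg too, and of their 9 markers 0 passed in limma and 2 had an unadjusted p under 0.05, with summed signals of 13505 to 17678 in knockouts and 9694 to 16986 in controls. Marco, a scavenger receptor among these markers, had 770, 492 and 387 in knockouts, against 298, 98.6 and 225 in controls. Every knockout exceeded every control for Marco, with a log2 difference of 1.40 that did not pass (limma adjusted p = 0.111), and Cd5l, a secreted macrophage protein, differed by 0.51 with overlap. The part of fat cells and Kupffer cells in the Pparg difference was not tested.

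The RefSeq promoters of Pparg on GRCm38.p6 are shown because it was the receptor that rose, and that of Nr2f2 because it fell. They were searched on both strands for TGACNNNGC, the core of the antioxidant response element that NRF2 binds, and for AGGTCA, the hexamer that many nuclear receptors bind. Each run holds the 250 bases before a transcription start, read 5′ to 3′ along the gene, and capitals mark a match on either strand. Pparg lies on the plus strand, with windows at chr6:115360894-115361143 and chr6:115362099-115362348. Nr2f2 lies on the minus strand, with a window at chr7:70366747-70366996.
Pparg upstream start: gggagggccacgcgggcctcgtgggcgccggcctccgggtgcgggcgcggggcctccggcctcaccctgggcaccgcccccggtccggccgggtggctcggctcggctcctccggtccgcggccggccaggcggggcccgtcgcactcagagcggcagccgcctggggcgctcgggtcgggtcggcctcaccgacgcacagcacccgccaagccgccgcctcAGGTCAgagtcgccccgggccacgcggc
Pparg second window: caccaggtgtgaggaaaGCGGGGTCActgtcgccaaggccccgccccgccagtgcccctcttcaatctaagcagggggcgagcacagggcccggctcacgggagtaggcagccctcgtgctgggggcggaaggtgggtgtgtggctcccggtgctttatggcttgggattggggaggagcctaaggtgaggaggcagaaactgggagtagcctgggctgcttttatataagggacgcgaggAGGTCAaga
Nr2f2: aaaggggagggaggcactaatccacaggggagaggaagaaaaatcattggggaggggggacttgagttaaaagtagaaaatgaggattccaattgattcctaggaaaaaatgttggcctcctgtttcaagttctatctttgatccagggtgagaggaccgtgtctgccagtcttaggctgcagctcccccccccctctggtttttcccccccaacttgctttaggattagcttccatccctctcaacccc
The capitals in the upstream Pparg window are AGGTCA. In the other Pparg window the capitals nearest the left end are the element core, read on the minus strand, and those nearest the start are AGGTCA. A further Pparg window, at chr6:115421816-115422065, and the Nr2f2 window held neither. Over all windows of this length in the table, 10.2% held the element core and 14.0% held AGGTCA, and among the receptors 5 of 45 windows held the core and 9 of 45 held AGGTCA. A match describes letters and not binding.

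Ppara encodes PPAR alpha, which switches on fatty acid oxidation in the fasted liver. Its signal was 1903, 1616 and 3825 in knockouts, against 2866, 3026 and 1883 in controls. Knockout 5 was the highest and knockout 4 the lowest of all 6 mice, and the difference of -0.16 had a 95% interval from -0.85 to 0.54 (limma adjusted p = 0.864). A further Ppara probe set, 1457721_at, had signals of 2119, 1800 and 1680 in knockouts, against 2857, 2768 and 2175 in controls. There all knockouts lay below all controls and knockout 5 was the lowest mouse (log2 difference -0.47, limma adjusted p = 0.158 over probe sets). Ppard, which encodes the third receptor of this family and is found in most tissues, had a difference of 0.15 (limma adjusted p = 0.836).

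Nr1h3 encodes the oxysterol sensor LXR alpha. Its signal was 1711, 1828 and 1390 in knockouts, against 1551, 1741 and 1885 in controls. The groups overlapped, with a log2 difference of -0.08 and a 95% interval from -0.37 to 0.22 (limma adjusted p = 0.841). Nr1h4 encodes FXR, the bile acid sensor, and its signal was 3386, 3577 and 3553 in knockouts, against 4464, 5114 and 3116 in controls. Controls 1 and 2 were above every knockout and control 3 was below them (log2 difference -0.24, 95% interval from -0.62 to 0.13, limma adjusted p = 0.537). Nr0b2 encodes SHP, which lacks a DNA-binding domain, is induced by FXR and represses bile acid synthesis, and its signal was 676, 556 and 1300 in knockouts, against 1368, 801 and 1373 in controls. Knockouts 3 and 4 lay below all controls and knockout 5 did not, and the log2 difference of -0.53 did not pass (limma adjusted p = 0.470).

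None of the 3 retinoid X receptors, the shared partners of many of the others, passed in limma, and 0 of them had an unadjusted p under 0.05. Rxra, the main liver form, had signals of 3361, 3784 and 3393 in knockouts, against 4050, 3593 and 3672 in controls. The groups overlapped, and the log2 difference of -0.10 had a 95% interval from -0.32 to 0.11. Rxrb differed by 0.00 (limma adjusted p = 0.996). Rxrg, which is best known from muscle and brain, differed by 0.28, with a 95% interval from -0.25 to 0.82.

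Of the 6 receptors for retinoic acid, thyroid hormone and vitamin D, 4 were tested, and 0 passed in limma or had an unadjusted p under 0.05. The log2 differences were -0.02 for Rarb and -0.08 for Rarg, both retinoic acid receptors, and 0.05 for Thra and 0.04 for Thrb, the thyroid hormone receptors. Their control means ran from 233 for Rarb to 429 for Rarg. The signals of Rarg spread more in controls, at 254, 582 and 452, than in knockouts, at 379, 378 and 393, and this difference in spread was not tested. The retinoic acid receptor Rara was dim, with 14.0, 58.4 and 24.6 in knockouts against 150.8, 20.9 and 106.8 in controls. Vdr, the vitamin D receptor, was dim as well, with 66.8, 18.5 and 44.1 in knockouts against 53.4, 10.3 and 54.4 in controls, and both genes overlapped between groups.

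The 3 steroid receptors did not pass in limma, and 1 of them, Nr3c2, had an unadjusted p under 0.05. Nr3c1 encodes the glucocorticoid receptor, and its signal was 2523, 2696 and 2953 in knockouts, against 2659, 2363 and 2881 in controls. The groups overlapped (log2 difference 0.05, 95% interval from -0.20 to 0.30), and 3 of its 5 tested probe sets were higher and 2 lower in knockouts, from -0.31 to 0.52. Esr1, the oestrogen receptor alpha, had signals of 1401, 1865 and 1325 in knockouts, against 1290, 1311 and 1540 in controls. Knockout 4 was the highest mouse and the groups overlapped (log2 difference 0.14, limma adjusted p = 0.720). Nr3c2, the mineralocorticoid receptor, had 252, 267 and 322 in knockouts, against 375, 435 and 325 in controls. Its groups were apart by the gap between knockout 5 and control 3 alone, and the log2 difference of -0.41 did not pass (limma adjusted p = 0.291).

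The liver identity factors were Hnf4a and Nr5a2, and neither passed in limma. Hnf4a encodes HNF4 alpha, which holds the hepatocyte gene programme in place, and its signal was 12250, 11337 and 9981 in knockouts, against 8257, 9169 and 7861 in controls. Every knockout exceeded every control, with means of 11189 ± 1142 in knockouts and 8429 ± 671 in controls (SD, n = 3 each). The log2 difference was 0.41, with a 95% interval from 0.16 to 0.65 (limma adjusted p = 0.109, unadjusted p = 0.00466). All 4 Hnf4a probe sets had a difference above 0, at 0.41, 0.47, 0.20 and 0.33, and on 2 of them the groups did not overlap. Of the 8 hepatocyte markers 7 also lay above the controls, by 0.13 to 0.23 on the log2 scale, with 0.23 for the tyrosine-degrading enzyme Tat, and 47.2% of all genes did. The eighth, the urea cycle enzyme Ass1, had the largest difference of the list, at -0.50 with overlap (limma adjusted p = 0.469). The median was 0.18, 0 of the 8 passed in limma and 2 had an unadjusted p under 0.05. With other processing or an array left out, the marker median ran from 0.013 to 0.27. The Hnf4a difference then ran from 0.24 to 0.50. Nr5a2 encodes LRH-1, an activator of bile acid synthesis, and its signal was 1843, 2015 and 1905 in knockouts, against 2089, 1881 and 1734 in controls, with overlap and a difference of 0.02 (95% interval from -0.22 to 0.25).

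**Figure D3:**
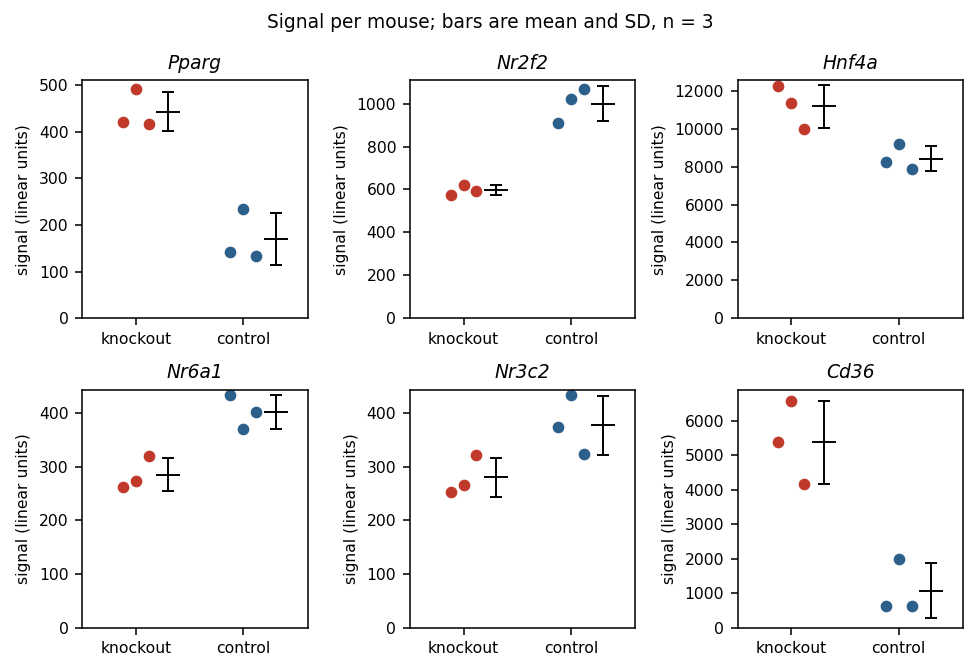
Signal per mouse in linear units for the 5 receptors whose groups do not overlap and for Cd36, with the mean and SD of 3 mice beside the points. Knockouts stand left of controls, and Pparg, with 417 to 491 in knockouts and 133 to 233 in controls, shows the widest gap relative to its level among the receptors.

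Nr2f2, of the other orphans, encodes COUP-TFII, which is known for setting venous identity in endothelium and is also found in mesenchymal cells. Its signal was 573, 620 and 594 in knockouts, against 908, 1022 and 1070 in controls. No knockout came near a control, and the means were 596 ± 23.6 in knockouts and 1000 ± 83.2 in controls (SD, n = 3 each). The log2 difference was -0.73, with a 95% interval from -0.99 to -0.47 (limma adjusted p = 0.0178). In RNA from whole tissue, fewer cells of a type and less RNA per cell cannot be told apart.

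Nr2f2 had 5 tested probe sets, all with a difference below 0, at -0.73, -0.32, -0.29, -0.04 and -0.47, and on 3 of them the groups did not overlap. On 1416158_at the highest knockout was 600.8 and the lowest control 604.6, and on 1436475_at these were 394.4 and 394.7. Only the brightest, 1416159_at, passed over probe sets (limma adjusted p = 0.0204, where 1.52% of all probe sets passed). Averaged over its probe sets, the gene differed by -0.37 and did not pass (limma adjusted p = 0.305). The call was kept without knockout 4 or control 1 (limma adjusted p = 0.0409 and 0.0400). It was lost without knockout 3 or 5 (limma adjusted p = 0.0792 and 0.0538) and without control 2 or 3 (limma adjusted p = 0.0634 and 0.0550), with differences between -0.80 and -0.68.

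Markers of endothelial and stellate cells, which are among the cell types that can carry Nr2f2, did not pass. Of 8 endothelial markers 0 passed in limma and 1 had an unadjusted p under 0.05, with 3 above and 5 below the controls and summed signals of 7142 to 7698 in knockouts and 6938 to 7173 in controls. Lyve1, a marker of sinusoidal endothelium, lay above the controls with a log2 difference of 1.29 (limma adjusted p = 0.108) and Kdr, an endothelial growth factor receptor, differed by -0.15. Of 8 stellate cell markers 0 passed in limma and 1 had an unadjusted p under 0.05, with summed signals of 9671 to 10786 in knockouts and 10064 to 11149 in controls, and the largest differences were -0.63 for the collagen gene Col3a1 and -0.45 for Hand2. No marker of either list was under 16 on all arrays. The part of these cells, or of hepatocytes, in the Nr2f2 difference was not tested.

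Among the remaining orphans, Nr6a1, known as germ cell nuclear factor, had signals of 262, 273 and 320 in knockouts, against 435, 370 and 402 in controls. All knockouts lay below all controls, and the log2 difference of -0.47 did not pass (limma adjusted p = 0.173). Of the 4 tested Nr6a1 probe sets 3 were lower and 1 higher in knockouts, from -0.47 to 0.11. Nr2f6, a relative of Nr2f2 known for repressing T cell cytokine genes, had 1461, 1418 and 1336 in knockouts, against 1572, 1322 and 1932 in controls, with overlap and a difference of -0.18. Rora, a clock-linked activator, had 1822, 1260 and 1452 in knockouts, against 1980, 1341 and 1404 in controls, with overlap and a difference of -0.05. Esrra, a regulator of mitochondrial genes, differed by 0.25 on the probe set used and by -0.64 on its other one, and passed on neither. The testicular receptors Nr2c1 and Nr2c2 differed by -0.02 and 0.16, and the immediate early receptors Nr4a1 and Nr4a2 by -0.08 each. Nr2f1, the close relative of Nr2f2, was too dim to test, at 42.0, 44.7 and 40.7 in knockouts against 24.3, 41.8 and 45.0 in controls.

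Receptors differed in how tightly mice of a group lay together. The pooled log2 SD was 0.0931 for Rxra, 0.0937 for Nr2f2 and 0.105 for Nr5a2, the tightest of the tested ones, and 0.543 for Nr0b2, 0.533 for Ppara and 0.427 for Nr2c2, the widest. The median over receptors was 0.231, beside 0.201 over all genes. Of 16 receptors with more than 1 tested probe set, 6 had all of them on the same side of 0, among them Hnf4a, Nr2f2 and Ppara. The plot of probe sets shows how far those of a gene stood apart.

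**Figure D4:**
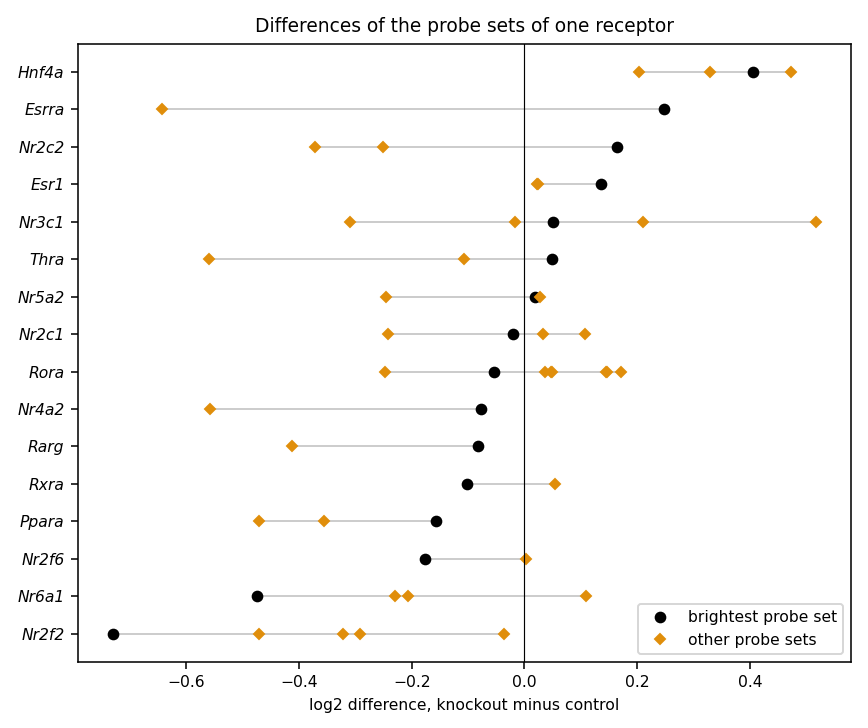
Log2 difference between knockouts and controls for each tested probe set of the receptors with more than 1, 1 line of points per gene. The probe sets of Hnf4a run from 0.20 to 0.47 and those of Nr2f2 from -0.73 to -0.04, while those of Nr3c1 spread from -0.31 to 0.52.

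Genes downstream of the receptors were read from lists by receptor. Among 22 tested PPAR alpha targets 1 rose, 0 fell and 18 lay below the controls, and 5 had an unadjusted p under 0.05. The median log2 difference was -0.16, beside -0.02 over all genes. Of all genes tested 1.04% rose, 0.944% fell and 47.2% lay above the controls. The one that rose was Cd36, a fatty acid uptake receptor that PPAR gamma also drives, with signals of 5371, 6577 and 4151 in knockouts, against 614, 1987 and 615 in controls. All knockouts exceeded all controls, by 5.71-fold in the fit (limma adjusted p = 0.0204), and control 2 was the highest control here as for Pparg. The call was kept without control 2 alone, and was lost without knockout 3, 4 or 5 (limma adjusted p = 0.0714, 0.0619 and 0.0531) and without control 1 or 3 (limma adjusted p = 0.0641 and 0.0600), and also without a variance trend or with robust eBayes (limma adjusted p = 0.0830 and 0.0815). Of the 12 PPAR gamma targets listed, 7 were tested, 4 above and 3 below the controls, and Cd36 was again the 1 that rose. Other fat-storage members of that list did not pass, with 0.35 for the lipase Lpl and -0.04 for the droplet protein Plin4. The droplet protein gene Cidec was too dim to test. Whether Pparg had a part in the Cd36 difference was not tested.

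Glucocorticoid receptor targets had 2 of 18 tested genes that rose and 0 that fell, beside 1.04% and 0.944% of all genes tested. An unadjusted p under 0.05 was found in 7 of the 18. Of the 18, 12 lay above and 6 below the controls, where 47.2% of all genes lay above. The list, like the others, was chosen with earlier results of these data known, so these shares are descriptions only. The median log2 difference was 0.28, beside -0.02 over all genes. Fkbp5, a chaperone partner of the receptor, had 4598, 2884 and 3575 in knockouts, against 1744, 1684 and 1295 in controls. All knockouts exceeded all controls, by 2.31-fold (limma adjusted p = 0.0156), and the call was lost without knockout 5 (limma adjusted p = 0.0538). Ddit4, an inhibitor of mTORC1 that many stresses also induce, had 4320, 2899 and 3136 in knockouts, against 1363, 468 and 536 in controls. Its groups were likewise apart, by 4.77-fold (limma adjusted p = 0.0178), and its call was lost without knockout 3 or 5 (limma adjusted p = 0.0714 and 0.0569) and without control 2 or 3 (limma adjusted p = 0.0503 and 0.0588). Without a variance trend neither call held (limma adjusted p = 0.0690 for Fkbp5 and 0.0751 for Ddit4), and with robust eBayes that of Ddit4 did not (limma adjusted p = 0.0513).

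Other receptor targets did not pass in limma, and their counts of unadjusted p under 0.05 have no share over all genes beside them. Of 16 LXR targets 0 passed and 3 had an unadjusted p under 0.05, with -1.03 for the fatty acid synthase Fasn and 0.87 for the sterol exporter gene Abcg5. Of 16 FXR targets 0 passed and 3 had an unadjusted p under 0.05, led by Nr0b2 itself and by -0.43 for the lipid transfer protein Pltp. Of 18 HNF4 alpha targets 0 passed (median 0.06), and 1, again Cyp8b1, had an unadjusted p under 0.05. The largest differences were -0.72 for G6pc and -0.67 for Pck1, which encode enzymes of gluconeogenesis, and both genes overlapped between groups. Of 10 thyroid hormone receptor targets 0 passed and 2 had an unadjusted p under 0.05, though 8 lay below the controls (median -0.35), where 47.2% of all genes lay above. After G6pc the largest difference was -0.66 for Gpd2, which was 1 of the 2. Of 9 retinoid genes 0 passed and 4 had an unadjusted p under 0.05, with 0.55 for Cyp26a1 and -0.42 for Cyp26b1, which both clear retinoic acid.

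**Figure D5:**
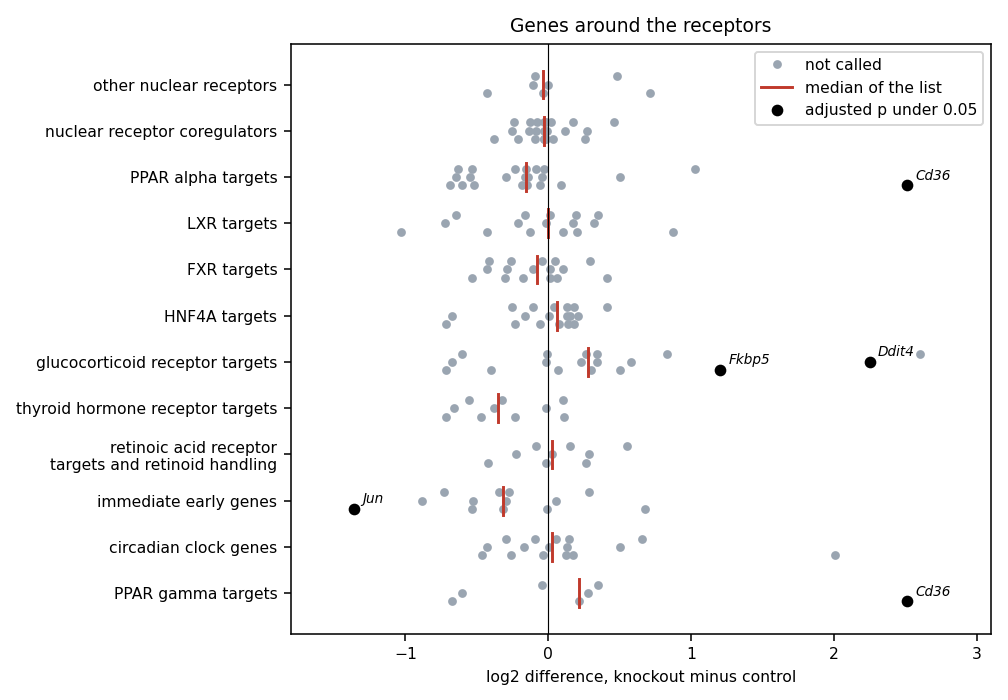
Log2 difference between knockouts and controls for the tested genes of each list, with the list's median as a line and genes past a limma adjusted p of 0.05 as black points with names. The genes that passed are Cd36 at 2.51, Ddit4 at 2.25 and Fkbp5 at 1.20 on the higher side and Jun at -1.36 on the lower, while the medians of the 12 lists drawn, which leave out the cell type markers, stay between -0.35 and 0.28.

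Of 24 coregulators tested, the proteins through which the receptors act, 0 passed in limma and 1 had an unadjusted p under 0.05, with 0.46 for Lpin1 and -0.38 for Ppargc1a. Of 7 further nuclear receptors tested 0 passed in limma and 1 had an unadjusted p under 0.05. That was Nr1i3, which encodes the drug sensor CAR and lay above the controls with a log2 difference of 0.48 (limma adjusted p = 0.0579). Esrrb differed by 0.71 (limma adjusted p = 0.574).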

How the data were processed

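The arrays carried 1 colour and 1 mouse each. The values deposited are linear intensity, and on every array their mean was 500.0 once 2% of probe sets had been trimmed at either end, so the authors had scaled the arrays to a shared target. A change in RNA per cell that touched all genes would not be seen. Per the labels' protocols, labelled cRNA was made from an oligo(dT) primer. The sources used here name neither the summarising software nor the array's genome build.

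Of 45101 probe sets, 34945 had 1 gene symbol in the platform annotation, 932 several and 9160 none, with 64 controls besides. No symbol needed updating. From the signals log2(signal + 16) was computed. Probe sets with a mean log2 value at or above the 40th percentile, near a signal of 79.0, were tested, 27022 in all, and the probe set with the highest mean stood for its gene, 13027 in all. Under R 4.3.3, limma 3.58.1 fitted a linear model per gene and eBayes moderated the variances along a mean-variance trend. The two-sided p-values were adjusted by the Benjamini-Hochberg method for 13027 genes, with a threshold of 0.05. Fold differences are on that log2 scale and understate dim genes. Between 11.9% and 16.5% of values per array were under 16. An exact permutation test of 3 mice against 3 cannot go below p = 0.1. The words "rose" and "fell" are kept for genes past that threshold.

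The receptors and the gene lists were chosen with earlier results of these data known, and the PPAR gamma target list was added after the difference of Pparg was seen. Values per mouse are given for receptors that passed, whose groups do not overlap or that are among the 10 brightest in controls, and dim receptors are given as well. From each list up to 4 genes past the threshold are named, and where none passed the 2 that differed most. Lpl, Plin4, Cidec, Cyp8b1, Fetub, Apoa5 and Carm1 were named after their values were seen, as were Nr4a1, Nr4a2 and the other receptors given by difference. The steps were tested on simulated arrays. Alternatives were other filters, offsets of 1 and 64, quantile, median, cyclic loess and hybridisation-control scaling, robust eBayes and eBayes without a trend, weighted arrays, other uses of a gene's probe sets, and leaving out each array with probe sets and filter kept.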

Additional observations from a re-analysis of the deposited data

How the results depend on the processing

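No paired analysis was possible because the groups share only the replicate number 3, and the number does not mark a shared mouse. With 3 mice a group, the calls of Pparg and Nr2f2 lay near the threshold. The count of changed genes was 77 without the variance trend and lay between 92 and 171 when each array was left out. The count of changed receptors was 0 without the trend, 1 as the mean over probe sets and 1 without probe sets that match several transcripts, which give no value for Pparg, and lay between 0 and 1 when each array was left out. Receptors whose groups do not overlap then numbered 6 to 8, with fewer mice to compare. The matching share of all genes is not given, so these counts say nothing about receptors in particular. Hybridisation control scaling gave 360 changed genes, 23.6% of them higher in knockouts, beside 52.3% as reported, and moved the median of all genes to -0.18. Median centring gave 211, 64.9% of them higher. The median receptor difference was 0.013 with quantile normalization, 0.075 with median centring, 0.014 with cyclic loess, -0.18 with hybridisation control scaling and -0.075 as the mean over probe sets, and lay between -0.030 and 0.055 when each array was left out. Differences that did not pass turned sign in some settings, among them those reported as 0.65 for Arntl, 0.46 for Lpin1, -0.44 for Krt7 and -0.43 for Pltp, and the cause was not tested. With quantile normalization Nr2c1 was 0.031, Rarb 0.049 and Nr4a2 0.0065. With median centring Nr1h3 was 0.020, Rora 0.041, Nr2c1 0.075, Rarg 0.012, Nr4a1 0.017, Rarb 0.079, Nr4a2 0.018 and Ptprc 0.037. With cyclic loess Nr2c1 was 0.023, Rarb 0.054 and Nr4a2 0.017. With hybridisation control scaling Nr3c1 was -0.11, Nr5a2 -0.15, Esr1 -0.029, Rxrb -0.16, Thra -0.11, Thrb -0.12 and Ppard -0.00068. With array weights Nr5a2 was -0.015 and Rora 0.0080. As the mean over probe sets Nr5a2 was -0.066, Rora 0.037, Esrra -0.20, Nr2c2 -0.15 and Thra -0.21. Without probe sets that match several transcripts Arntl was -0.010 and Fabp4 -0.19. Leaving out each array gave -0.073 to 0.15 for Rxrb, -0.042 to 0.15 for Thra, -0.23 to 0.10 for Rarb, -0.26 to 0.086 for Nr4a2, -0.53 to 0.088 for Ppara, -0.046 to 0.088 for Nr5a2, -0.20 to 0.12 for Rora, -0.014 to 0.23 for Esr1, -0.19 to 0.15 for Nr2c1, -0.094 to 0.12 for Thrb, -0.026 to 0.12 for Nr3c1, -0.16 to 0.039 for Nr1h3, -0.11 to 0.40 for Nr2c2, -0.41 to 0.17 for Rarg, -0.22 to 0.076 for Nr4a1, -0.027 to 0.31 for Ppard, -0.17 to 0.039 for Ptprc, -0.68 to 0.024 for Pltp, -0.74 to 0.0053 for Krt7 and -0.16 to 1.03 for Lpin1.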

Other observations

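Immediate early genes, which answer growth and stress signals within minutes, had 1 of 13 tested members that fell and 0 that rose. They had 10 below and 3 above the controls, a median log2 difference of -0.32 and 4 with an unadjusted p under 0.05. Over all genes tested 0.944% fell, 1.04% rose, 47.2% lay above the controls and the median was -0.02. The one that fell was Jun, a subunit of the AP-1 transcription factor, with signals of 366, 437 and 254 in knockouts, against 601, 1053 and 1174 in controls (limma adjusted p = 0.0433). All knockouts lay below all controls, and the call was kept without control 1 alone of the 6 arrays, with adjusted p-values of 0.120, 0.0556 and 0.121 without knockout 3, 4 and 5 and of 0.133 and 0.118 without control 2 and 3. It was also lost with no filter, with quantile, median or cyclic loess normalization, with robust eBayes or no variance trend and as the mean over probe sets, with adjusted p-values from 0.0521 to 0.120.

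Of 16 circadian clock genes tested 0 passed in limma and 2 had an unadjusted p under 0.05. Ciart, a repressor of the clock, had signals of 719, 525 and 755 in knockouts, against 287, 420 and 19.7 in controls (log2 difference 2.01, limma adjusted p = 0.264). Arntl, which encodes the clock activator BMAL1, differed by 0.65 (limma adjusted p = 0.577). Of 3 tested cholangiocyte markers and 2 tested lymphocyte markers 0 passed in limma and 0 had an unadjusted p under 0.05. Summed over the 5 measured cholangiocyte markers, those too dim to test included, signals were 258 to 528 in knockouts and 313 to 1318 in controls. Over the 4 measured lymphocyte markers they were 686 to 869 in knockouts and 680 to 800 in controls. The cholangiocyte markers Epcam and Krt7 differed by -1.04 and -0.44, and the lymphocyte markers Cd79a and Ptprc by 0.23 and -0.06.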
